A study of Caenorhabditis elegans with 8 samples.

Results

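The comparison described here sets the strain *mec-3(syb8382)* IV; *uIs134* V against the strain *mec-3(u184)* IV; *uIs134* V. Its members were chosen by strain label, so it holds 2 of the 8 samples of the series and 4 of its 16 libraries, 2 biological replicates of whole L4 *C. elegans* for each strain. Allele *syb8382* is a deletion of exon 2 of *mec-3* with flanking intron sequence, made by gene editing, and lacks the *mec-3a* isoform. Allele *u184* was used in the study as the *mec-3* null. Its lesion is not given in the sources used here. Both strains carry the reporter *uIs134*, in which the *mec-17* promoter drives TagRFP in the touch receptor neurons (TRNs), and all 4 libraries keep the strand of the RNA, so neither the reporter nor the kind of library differs between the groups. Each allele comes as 1 strain, so any other difference between the strains, in genetic background or in the stage of the cultures, cannot be told apart from the allele.

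*mec-3* encodes a LIM homeodomain transcription factor that acts with the POU homeodomain protein UNC-86 as a terminal selector of the TRNs, the gentle touch sensors of *C. elegans*. It is also needed in the FLP and PVD neurons, which sense harsh touch. Its targets in TRNs include the tubulins *mec-7* and *mec-12*, the tubulin acetyltransferase *mec-17* and the mechanosensory channel subunits *mec-4* and *mec-10*. Set against the null, the *syb8382* strain asks which of these genes are expressed when only the isoforms without exon 2 can be made.

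In WBcel235 *mec-3* lies on the minus strand of chromosome IV from 10458816 to 10461867. Exon 1 of transcript F01D4.6a runs from 10461689 to 10461867, exon 2 from 10461243 to 10461293 and exon 3 from 10460986 to 10461101. Exon 2 has 51 bases, is coding and is annotated only in F01D4.6a. Transcript F01D4.6d joins exon 1 to exon 3 directly, and F01D4.6c starts in exon 3. The sequences that tell the isoforms apart were taken from the oligonucleotides of the study. They share 15 bases of exon 1 in lower case, and the capitals mark what follows in each isoform. The line with exon 2 shows the whole exon in capitals between the last 15 bases of exon 1 and the first 15 bases of exon 3, which is the junction that only the *a* isoform has. It is written as in the repair donor of *unk206*, an allele limited to the *a* isoform. The study put synonymous changes into its repair templates, and the line was not checked against the genome. Single bases may therefore differ from the native sequence. The guide used to make *syb8382* follows.
mec-3a primer: gatcatgaaaatcagAACAA
mec-3d primer: gatcatgaaaatcagATGGA
exon 2 with its flanks: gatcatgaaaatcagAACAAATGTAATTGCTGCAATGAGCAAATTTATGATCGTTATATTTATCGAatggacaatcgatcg
syb8382 guide: caaaaacacttttcggccag
The guide differed from the repair donor of the deletion at 1 base, C18A, counted from 1 at the 5′ end of the guide. The gene counts sum all isoforms, so *mec-3a* and *mec-3d* cannot be told apart in them.

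Reads counted on genes came to 22417322 and 22600552 in the *mec-3(syb8382)* libraries and 22309035 and 22405435 in the *mec-3(u184)* libraries, so depth was nearly equal. Values are given as CPM, the counts scaled to a common normalised library total, and log2 fold changes with their standard error (SE), where a positive value means higher in *mec-3(syb8382)*. Across all genes 14897 passed the filter on low counts, and 6857 of them differed between the strains at an adjusted p under 0.05 (quasi-likelihood test of edgeR, Benjamini-Hochberg adjusted). That is 46.0% of the genes tested. Libraries of the strains did not overlap for 75.6% of genes, and 53.6% had an unadjusted p under 0.05. Of the 6857 genes, 3472 were higher (23.3%) and 3385 lower (22.7%) in *mec-3(syb8382)*. Changes of at least 2-fold were rarer, with 335 genes higher (2.25%) and 1118 lower (7.50%). Over all genes the median log2 fold change was -0.04, with quartiles of -0.46 and 0.28. The count of calls was 4461 without *mec-3(u184)* library 1 and 3906 without *mec-3(u184)* library 2. In 1 fit of all 16 libraries in counts without strand, which takes its spread from all 8 strains, it fell to 8 genes, with 2018 genes at an unadjusted p under 0.05. With 2 libraries against 2, the smallest p of an exact permutation test is 0.33, so all tests borrow the spread of other genes.

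**Figure D1:**
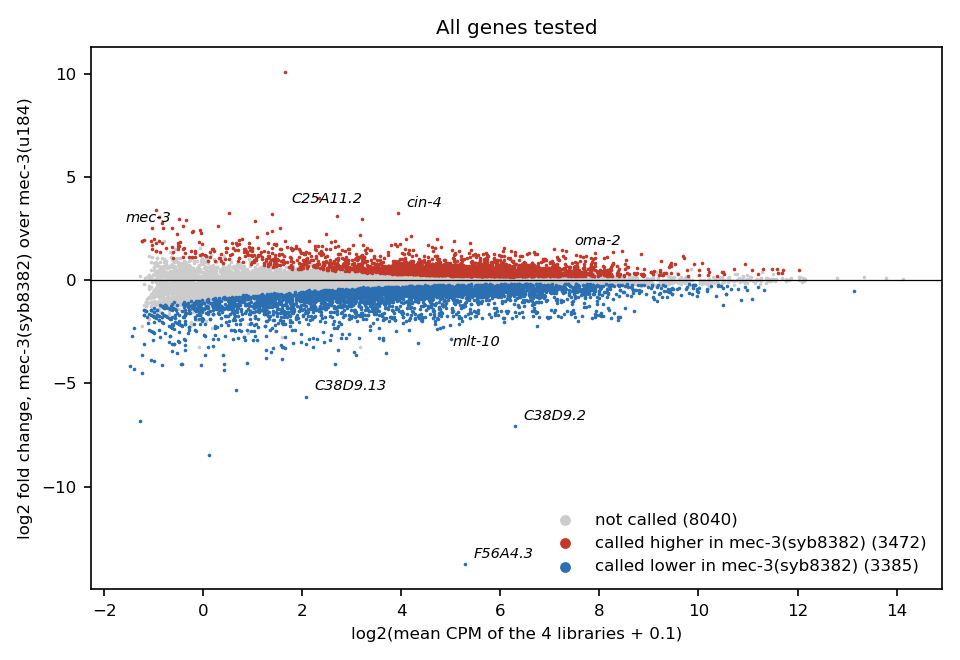
Log2 fold change of *mec-3(syb8382)* over *mec-3(u184)* against the mean level of each of the 14897 genes tested, as log2 of mean CPM plus 0.1. Red points are the 3472 genes called higher and blue points the 3385 called lower, and *F56A4.3*, the lowest point, has 0 counts in *mec-3(syb8382)*, so that its fitted value is no estimate.

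*mec-3* itself was low in whole animals. It had 12 and 11 counts (0.53 and 0.50 CPM) in the *mec-3(syb8382)* libraries, against 3 and 3 counts (0.13 CPM each) in the *mec-3(u184)* libraries. The libraries did not overlap, but the *mec-3(u184)* counts are at the floor of 3 counts per library set here. Summed over libraries, the ratio was 3.82 (exact 95% interval 1.51 to 11.5, for counting error only). The adjusted p was 0.0162 with edgeR, and *mec-3* was not called when any 1 of the 4 libraries was left out, with adjusted p between 0.0811 and 0.0996. DESeq2 gave it no adjusted p. Exon 2, which *syb8382* lacks, can give no reads in that strain.

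Of the TRN microtubule genes, *mec-7* and *mec-17* were not called. *mec-7*, the TRN β-tubulin, had 10.5 and 9.29 CPM in *mec-3(syb8382)*, against 7.06 and 8.09 CPM in *mec-3(u184)*, a log2 fold change of 0.38 (SE 0.14, adjusted p = 0.0652). Without *mec-3(syb8382)* library 2 it was called (adjusted p = 0.0299). *mec-17* had 3.43 and 2.53 CPM in *mec-3(syb8382)*, against 2.56 and 2.31 CPM in *mec-3(u184)* (log2 fold change 0.29, SE 0.24, adjusted p = 0.352). The libraries of the strains overlapped for *mec-17* and did not for *mec-7*. For scale, the *a*-isoform strain *mec-3(unk206)*, which carries another reporter insertion, *uIs115*, had 39.0 and 37.4 CPM of *mec-7* and at least 14.4 CPM of *mec-17* in each library on a scale common to the *mec-3* strains, so both strains compared here were below it for both genes. *mec-18*, a further TRN gene, had 0.54 and 0.31 CPM in *mec-3(syb8382)*, 0.36 and 0.54 CPM in *mec-3(u184)* and 5.86 and 4.32 CPM in *mec-3(unk206)* on the same scale. In counts without strand *mec-3(unk206)* was itself below the wild type, whose libraries do not keep the strand. It had 36.7 and 35.4 CPM of *mec-7* against 177 and 127 CPM in the wild type. For *mec-17* the values were 13.9 and 18.9 against 49.6 and 34.6 CPM, and for *mec-18* 5.01 and 4.01 against 17.5 and 15.3 CPM.

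Other TRN microtubule genes went in both directions. *mec-15*, which encodes an F-box protein, rose, with 45.9 and 45.7 CPM in *mec-3(syb8382)*, against 29.4 and 28.3 CPM in *mec-3(u184)* (log2 fold change 0.67, SE 0.07, adjusted p = 0.00118). In counts without strand the wild type, which carries *uIs115*, had only 11.5 and 15.7 CPM of *mec-15*, below both strains. On that scale *mec-3(syb8382)* had 46.9 and 45.2 CPM and *mec-3(u184)* 29.5 and 28.5 CPM. The α-tubulin gene *mec-12* fell, with 34.4 and 29.0 CPM in *mec-3(syb8382)*, against 41.7 and 43.8 CPM in *mec-3(u184)* (log2 fold change -0.43, SE 0.10, adjusted p = 0.0119). *ptl-1*, the tau-like microtubule-associated protein, fell as well, with 3.999 and 4.510 CPM in *mec-3(syb8382)*, against 6.92 and 7.15 CPM in *mec-3(u184)* (log2 fold change -0.73, SE 0.15, adjusted p = 0.0103). Of all genes tested 23.3% rose and 22.7% fell. Of the 6 genes of this list 1 rose, 2 fell and 3 did not pass the test, with a median of -0.02. Neither fall was called without *mec-3(u184)* library 2. The acetyltransferase *atat-2*, the third not called, had a log2 fold change of -0.34 (SE 0.20, adjusted p = 0.218). Part of *ptl-1* overlaps the gene *tpst-2* on the same strand.

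The channel complex and its matrix had 9 genes, of which 6 were tested. Calls over all genes, for scale, were 23.3% higher and 22.7% lower. The channel subunits *mec-4* (8 and 3 counts in *mec-3(syb8382)*, 6 and 1 in *mec-3(u184)*) and *mec-10* (14 and 7 counts in *mec-3(syb8382)*, 4 and 4 in *mec-3(u184)*) and the reductase-like gene *mec-14* were too low to be tested in whole animals. Of the matrix genes, the collagen *mec-5* fell, with 25.2 CPM in both *mec-3(syb8382)* libraries, against 35.1 and 33.1 CPM in *mec-3(u184)* (log2 fold change -0.44, SE 0.08, adjusted p = 0.00513). *mec-1*, an extracellular protein with EGF and Kunitz domains, fell to 2.68 and 2.62 CPM in *mec-3(syb8382)*, against 4.36 and 4.89 CPM in *mec-3(u184)* (log2 fold change -0.80, SE 0.18, adjusted p = 0.0129). The stomatin-like *mec-2* had a log2 fold change of -0.40 (SE 0.19, adjusted p = 0.136), and *unc-24*, *mec-6* and *mec-9* lay between -0.36 and 0.05 and were not called. No gene of this list rose with edgeR or DESeq2, and 0 were higher at an unadjusted p under 0.05. Without *mec-3(u184)* library 2 only *mec-5* of the falls was called.

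Of 10 tested fate factors 1 rose, which was *mec-3*, 4 fell and 5 did not pass, with a median of -0.44. The shares over all genes, here and for the further TRN genes below, were 23.3% higher, 22.7% lower and 46.0% called either way. The heterochronic gene *lin-14* fell to 21.4 and 16.6 CPM in *mec-3(syb8382)*, against 30.6 and 33.2 CPM in *mec-3(u184)*. The zinc-finger homeodomain gene *zag-1* fell to 4.22 and 4.28 CPM in *mec-3(syb8382)*, against 6.61 and 7.33 CPM in *mec-3(u184)*. The Hox gene *egl-5* had a log2 fold change of -0.76 (SE 0.22, adjusted p = 0.0322), and *unc-86*, the partner of *mec-3*, one of -0.73 (SE 0.24, adjusted p = 0.0462). *lin-14* was called with DESeq2 and when any 1 library was left out, and *unc-86* under none of these settings. *zag-1* was not called without *mec-3(u184)* library 2, nor *egl-5* without *mec-3(syb8382)* library 2, without *mec-3(u184)* library 2 or with DESeq2. *vab-15*, *egl-44*, *alr-1*, *ahr-1* and *ceh-13* did not pass, with values between -0.83 and 0.04, and *egl-46* and *lin-32* were too low to be tested. Of 8 further TRN genes 1 rose and 3 fell. The largest change among them was that of *acbp-3*, an acyl-CoA-binding protein, with 21.7 and 17.1 CPM in *mec-3(syb8382)*, against 41.4 and 37.4 CPM in *mec-3(u184)* (log2 fold change -1.02, SE 0.12, adjusted p = 0.00179). *crt-1*, the calreticulin gene, and *mec-8*, a splicing regulator, were the other falls, and *klp-7*, a kinesin-13, was the rise. Without *mec-3(u184)* library 1, and likewise without library 2, *acbp-3* was the only one of the 3 falls called, and *klp-7* was not called without *mec-3(u184)* library 2. *tsp-7*, *nlp-69*, *mec-18* and *mec-19* did not pass, and *C03A3.3* was too low to be tested. Most of these genes are also expressed outside TRNs, and in RNA of whole animals fewer cells of a type and less RNA per cell cannot be told apart.

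**Figure D2:**
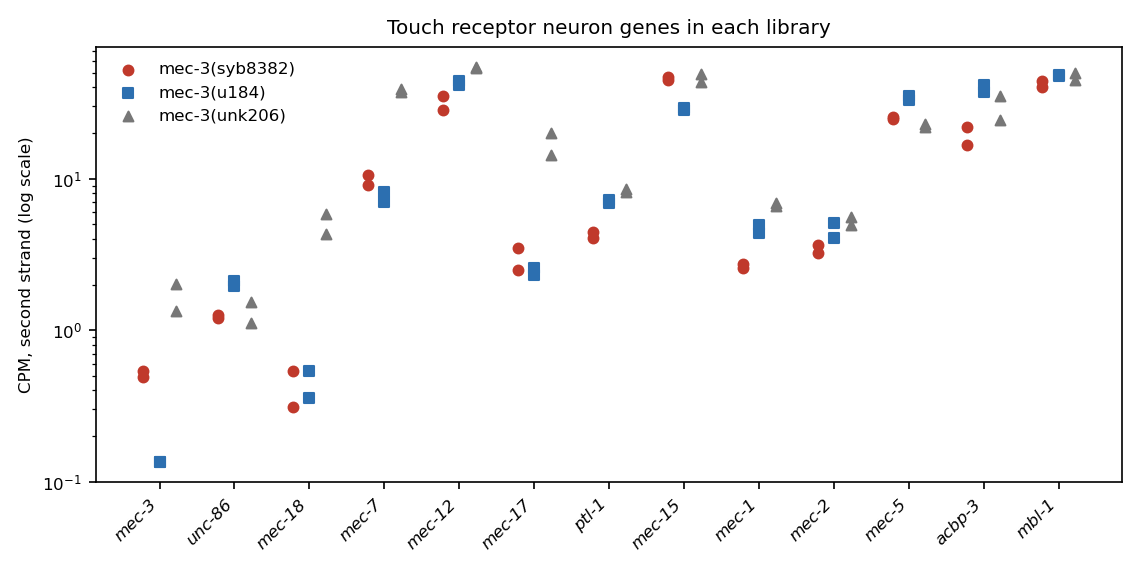
CPM of 13 touch receptor neuron genes and related genes (log axis), with 1 point per library, for *mec-3(syb8382)*, *mec-3(u184)* and, for scale, *mec-3(unk206)*, normalised over the libraries of the *mec-3* strains. For *mec-7*, *mec-17* and *mec-18* both strains compared lie below *mec-3(unk206)*, and *mec-3* in *mec-3(syb8382)* lies above *mec-3(u184)* and below *mec-3(unk206)*.

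Of the 20 genes listed for PVD and FLP, the neurons whose branched dendrites need *mec-3*, 0 rose and 6 fell. Over all genes 23.3% rose and 22.7% fell, and the median log2 fold change of the list was -0.47. In RNA of whole animals, expression of these genes in PVD and FLP cannot be told apart from that in other cells. No member was higher with DESeq2 or at an unadjusted p under 0.05 either (0 genes), while 1 was without *mec-3(syb8382)* library 1. Without *mec-3(u184)* library 2 the falls numbered 3. The furin-like protease *kpc-1* had 28.4 and 25.3 CPM in *mec-3(syb8382)*, against 44.5 and 46.0 CPM in *mec-3(u184)* (log2 fold change -0.75, SE 0.08, adjusted p = 0.00138). The channel *trpa-1* had 5.10 and 5.59 CPM in *mec-3(syb8382)*, against 9.35 and 11.4 CPM in *mec-3(u184)* (log2 fold change -0.96, SE 0.16, adjusted p = 0.00416). The secreted dendrite ligand *lect-2*, the cell fusogen *eff-1*, the Rac activator *tiam-1* and the acetylcholine receptor subunit *des-2* were the other 4. The dendrite receptors *hpo-30* and *dma-1* were near the detection limit, with 13 and 17 counts of *hpo-30* in *mec-3(syb8382)*, against 18 and 14 in *mec-3(u184)*. For *dma-1* the counts were 12 and 17 in *mec-3(syb8382)*, against 13 and 5 in *mec-3(u184)*. The other members, *aff-1*, *del-1*, *deg-3*, *osm-9*, *asic-1*, *T24F1.4*, *unc-8*, *acp-2*, *act-4*, *mnr-1*, *degt-1* and *sax-7*, had log2 fold changes between -0.83 and 0.34 and did not pass.

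The lists of this paragraph stand beside 22.7% of all genes that fell and 23.3% that rose, 46.0% called either way. Of 20 pan-neuronal genes 11 fell and 2 rose, with a median of -0.36. DESeq2 called 7 falls, and 5 were called without *mec-3(u184)* library 2. The neuropeptide-processing enzymes *egl-21* (76.3 and 72.5 CPM in *mec-3(syb8382)*, 104 and 109 CPM in *mec-3(u184)*) and *egl-3* (77.6 and 76.3 CPM in *mec-3(syb8382)*, 114 and 104 CPM in *mec-3(u184)*) were among the falls, as was the synaptic vesicle priming gene *unc-13* (20.6 CPM in both *mec-3(syb8382)* libraries, 30.8 and 29.6 CPM in *mec-3(u184)*). The rises were *maco-1*, which encodes macoilin, and *unc-11*, the AP180 adaptor, of which 1 was called without *mec-3(u184)* library 1 and likewise without library 2. Of 30 tested FMRFamide-like peptide genes 0 rose with edgeR, with DESeq2 or at an unadjusted p under 0.05, and 11 fell, with a median of -0.40. The falls numbered 4 in DESeq2, 5 without *mec-3(u184)* library 1 and 1 without *mec-3(u184)* library 2. Of 61 neuropeptide-like genes 1 rose and 21 fell, and without *mec-3(u184)* library 2 the rises numbered 0 and the falls 9. Of 13 genes of transmitter synthesis and transport 2 rose and 2 fell, with a median of -0.25. The rises were *tdc-1* and *tbh-1*, which make tyramine and octopamine and are also expressed in the gonadal sheath. *tdc-1* had 98.0 and 99.8 CPM in *mec-3(syb8382)*, against 54.4 and 59.1 CPM in *mec-3(u184)* (log2 fold change 0.80, SE 0.07, adjusted p = 0.000755). The falls were the aromatic amino acid decarboxylase *bas-1*, with 35.0 and 35.6 CPM in *mec-3(syb8382)*, against 44.3 CPM in both *mec-3(u184)* libraries, and the dopamine transporter *dat-1*, with 1.27 and 1.17 CPM in *mec-3(syb8382)*, against 2.25 and 1.91 CPM in *mec-3(u184)*. The falls of this list numbered 0 without *mec-3(u184)* library 2 and with DESeq2, and 1 when any other library was left out. *mbl-1*, the splicing regulator of *mec-3*, had 39.7 and 45.2 CPM in *mec-3(syb8382)*, against 47.8 and 48.5 CPM in *mec-3(u184)* (log2 fold change -0.18, SE 0.08, adjusted p = 0.109). Among 9 DLK-1 pathway genes and their regulators, *dlk-1*, *mak-2* and *cebp-1* fell and *fsn-1* and *uev-3* rose, each by less than 2-fold. *dlk-1* was the only one of these falls called without *mec-3(u184)* library 2. Of the rises *fsn-1* alone was called with DESeq2, without *mec-3(syb8382)* library 2, without *mec-3(u184)* library 1 and without *mec-3(u184)* library 2.

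Larger differences lay outside the nervous system. All 15 oocyte and eggshell genes rose, with a median log2 fold change of 1.08, where 23.3% of all genes rose. *oma-2*, a zinc-finger regulator of oocyte maturation, had 223 and 241 CPM in *mec-3(syb8382)*, against 90.0 and 86.1 CPM in *mec-3(u184)* (log2 fold change 1.40, SE 0.07, adjusted p = 0.000336). *egg-1*, a surface protein of the oocyte needed for fertilization, had 247 and 265 CPM in *mec-3(syb8382)*, against 109 and 112 CPM in *mec-3(u184)*. It shares much of its sequence with *egg-2*, so its counts are less certain. The chitin synthase of the eggshell, *chs-1*, had 163 and 153 CPM in *mec-3(syb8382)*, against 76.2 and 77.1 CPM in *mec-3(u184)*. Without *mec-3(u184)* library 2, 14 of the 15 were called. Of 16 genes of the germ line 15 rose, with a median of 0.56, among them the RNA-binding protein gene *mex-3* (251 and 285 CPM in *mec-3(syb8382)*, 124.8 and 115.6 CPM in *mec-3(u184)*), the Notch receptor *glp-1* and the P granule gene *pgl-1*. *fog-3*, which promotes sperm fate, was the one not called. Without *mec-3(u184)* library 2, 10 of the 16 were called.

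Most major sperm protein and cell division genes were higher too, where 23.3% of all genes rose and 22.7% fell. Of 29 tested major sperm protein genes 23 rose and 0 fell with edgeR, with DESeq2 or at an unadjusted p under 0.05, with a median of 0.42. These genes are near-identical copies, so the counts of single members are uncertain. Their sum was 6120 and 5884 CPM in *mec-3(syb8382)*, against 4279 and 4339 CPM in *mec-3(u184)*. Of the 14 other sperm genes listed, of the *ssp* and *ssq* families, 5 rose and 9 were not called, with a median of 0.29. The rises were *ssq-1*, *ssq-2*, *ssq-3*, *ssq-4* and *ssp-10*, between 0.39 and 0.56 on the log2 scale, and the 9 others, all *ssp* genes, lay between -0.07 and 0.40. Of 51 cyclins, kinases and other regulators of replication and mitosis, a list added after the values were seen, 47 rose. The polo kinase *plk-3* had 208 and 222 CPM in *mec-3(syb8382)*, against 103.7 and 99.96 CPM in *mec-3(u184)* (log2 fold change 1.08, SE 0.07, adjusted p = 0.000464). Of 18 Argonautes 12 rose, among them *wago-4* and *ergo-1*, and 3 fell, with 1 fall without *mec-3(u184)* library 1 and likewise without library 2. The vitellogenins, made in the adult intestine for the yolk, did not follow, with 0 of 6 called with edgeR, with DESeq2 or at an unadjusted p under 0.05 and fold changes between -0.02 and 0.13 on the log2 scale.

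Genes of the moulting cycle were lower, where 22.7% of all genes fell and 23.3% rose. Of 22 heterochronic and moulting genes 17 fell and 3 rose, with a median log2 fold change of -1.39, and the libraries of the strains did not overlap for any of the 22, as for 75.6% of all genes. *mlt-10*, a cuticle protein gene of the moult, had 11.2 and 7.35 CPM in *mec-3(syb8382)*, against 56.5 and 35.1 CPM in *mec-3(u184)* (log2 fold change -2.30, SE 0.27, adjusted p = 0.00169). It overlaps *lips-7* on the same strand. *mlt-8* had 24.1 and 19.4 CPM in *mec-3(syb8382)*, against 83.7 and 69.4 CPM in *mec-3(u184)*. *lin-42*, the period homologue that cycles with the moults, had 53.2 and 25.8 CPM in *mec-3(syb8382)*, against 110 and 124 CPM in *mec-3(u184)*. The rises were *lin-41*, *nhr-23* and *lin-28*, with 1 rise without *mec-3(u184)* library 1 and 2 without library 2. *lin-41*, which is also an oocyte gene, had 186 and 195 CPM in *mec-3(syb8382)*, against 99.9 and 96.3 CPM in *mec-3(u184)* (log2 fold change 0.96, SE 0.06, adjusted p = 0.00055). In 16 of the 17 falls *mec-3(syb8382)* library 2 was below library 1, so the replicates of that strain differed along the same genes.

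The cuticle itself was split. For the lists of this paragraph, 22.7% of all genes fell and 23.3% rose. Of 142 tested collagen genes 99 fell and 19 rose, with a median of -1.23, yet the collagen genes summed to 54960 and 68680 CPM in *mec-3(syb8382)*, against 58610 and 54720 CPM in *mec-3(u184)*. *col-90* had 11.1 and 8.34 CPM in *mec-3(syb8382)*, against 46.3 and 47.9 CPM in *mec-3(u184)* (log2 fold change -2.28, SE 0.13, adjusted p = 0.000419), and *col-169* and *col-65* fell likewise. *col-101* had 382 and 641 CPM in *mec-3(syb8382)*, against 201 and 187 CPM in *mec-3(u184)* (log2 fold change 1.40, SE 0.22, adjusted p = 0.00364). All 19 rises were higher in *mec-3(syb8382)* library 2 than in library 1. The number of rises ranged between 6 and 28 when 1 library was left out, the lowest number without *mec-3(u184)* library 2, with 9 without *mec-3(u184)* library 1. Cuticlins (16 of 24 fell, median -1.08), hedgehog-related genes (25 of 36 fell and 2 rose, median -1.27), Patched-related genes (17 of 25 fell and 2 rose, median -0.84) and astacin proteases (14 of 26 fell, median -0.96) also had more falls than rises. The falls of cuticlins numbered 7 without *mec-3(u184)* library 2 and 9 without library 1, and those of astacin proteases 9 without *mec-3(u184)* library 1. No hedgehog-related gene was called higher without *mec-3(u184)* library 1 or without library 2, and 3 astacin proteases were without *mec-3(syb8382)* library 1. *wrt-10*, a hedgehog-related secreted protein, had 8.22 and 5.46 CPM in *mec-3(syb8382)*, against 25.1 and 29.1 CPM in *mec-3(u184)*. Of the 11 tested *abu* genes and the 7 *idpc* genes, families picked out after the values were seen, all fell, with medians of -2.80 and -2.99. *abu-11* had 3.25 and 2.89 CPM in *mec-3(syb8382)*, against 26.3 and 16.6 CPM in *mec-3(u184)*, and in all 18 of these genes the *mec-3(u184)* libraries differed, with library 1 above library 2.

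**Figure D3:**
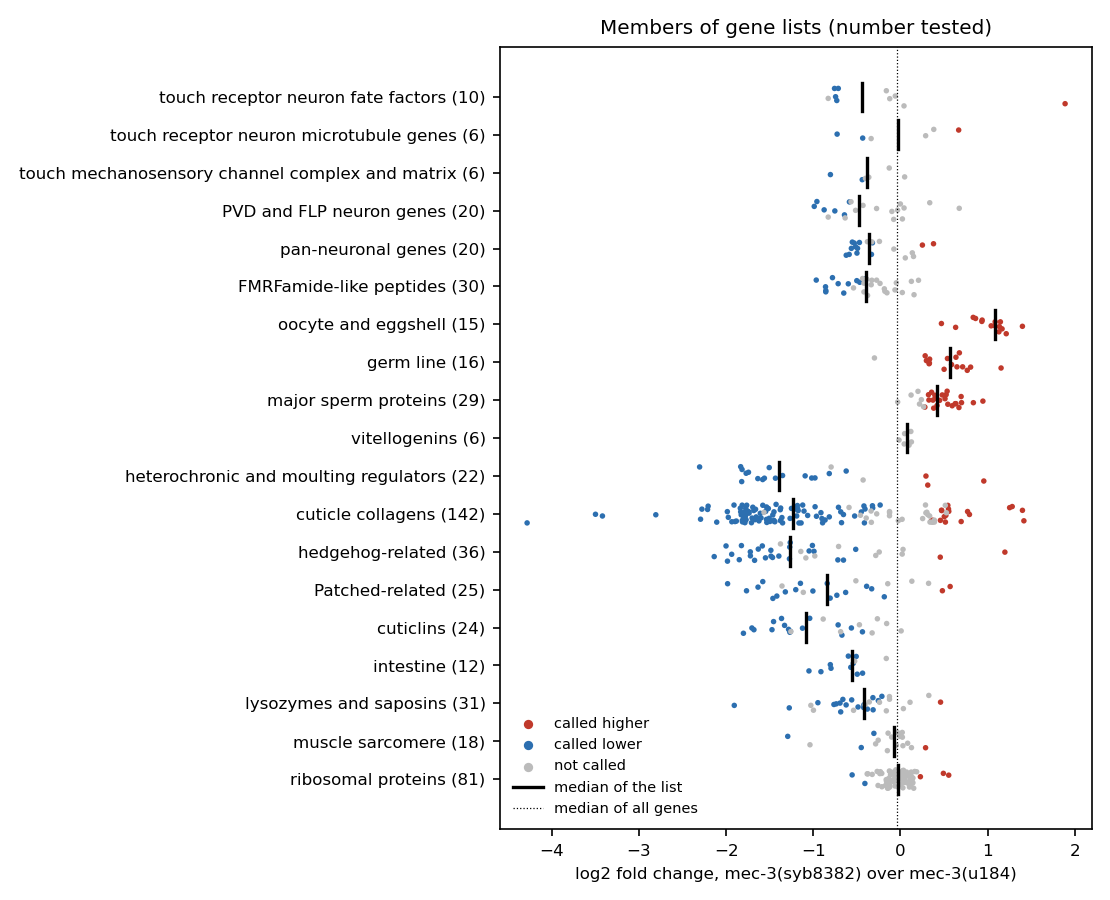
Log2 fold change of *mec-3(syb8382)* over *mec-3(u184)* for the tested members of 19 gene lists, 1 point per gene, in red where called higher, blue where called lower and grey where not called. Thick bars are list medians, between -1.39 for the heterochronic and moulting regulators and 1.08 for the oocyte and eggshell genes, and the dotted line is the median of all genes at -0.04.

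Most genes of the intestinal list were lower. Of its 12 genes 10 fell, with a median of -0.55. The vitellogenins, also made in the intestine but kept as a list of their own, were not called. Their log2 fold changes lay between -0.02 and 0.13. *ges-1*, the gut esterase, had 39.5 and 37.8 CPM in *mec-3(syb8382)*, against 65.3 and 69.6 CPM in *mec-3(u184)* (log2 fold change -0.80, SE 0.07, adjusted p = 0.000795). The GATA factor *elt-2*, which controls intestinal genes, had 18.6 and 14.1 CPM in *mec-3(syb8382)*, against 29.3 and 32.3 CPM in *mec-3(u184)*. Lysozymes and saposins (18 of 31 fell and 1 rose), glutathione S-transferases (21 of 38 fell and 1 rose), cytochrome P450s (23 of 50 fell and 4 rose) and C-type lectins (39 of 117 fell and 8 rose) also had more falls than rises. For the lists of this paragraph, the shares over all genes were 22.7% falls, 23.3% rises and 46.0% calls either way. Without *mec-3(u184)* library 2 the falls numbered 13 for the glutathione S-transferases and 9 for the P450s, which had 14 without library 1. The single rises of the glutathione S-transferases and of the lysozymes and saposins were not called without *mec-3(syb8382)* library 2 or without *mec-3(u184)* library 2, and that of the lysozymes and saposins not without *mec-3(u184)* library 1 either. Of 13 tested infection response genes 6 fell and 1 rose, with a median of -0.71, and without *mec-3(syb8382)* library 1 the falls numbered 10 and the rises 2. *irg-5* had 175 and 136 CPM in *mec-3(syb8382)*, against 607 and 341 CPM in *mec-3(u184)* (log2 fold change -1.61, SE 0.26, adjusted p = 0.00405). The rise was that of *dod-21*, with 1.05 and 1.53 CPM in *mec-3(syb8382)*, against 0.18 and 0.31 CPM in *mec-3(u184)* (log2 fold change 2.37, SE 0.43, adjusted p = 0.00568). In fat metabolism 8 of 20 genes fell, 5 without *mec-3(u184)* library 1 or without library 2, and 0 rose with edgeR, with DESeq2 or at an unadjusted p under 0.05, while 1 did without *mec-3(syb8382)* library 1 and 1 without *mec-3(u184)* library 1. The desaturase *fat-5* was among the falls, with 8.48 and 14.7 CPM in *mec-3(syb8382)*, against 38.03 and 39.59 CPM in *mec-3(u184)*. *acdh-2*, an acyl-CoA dehydrogenase, rose to 22.4 and 22.6 CPM in *mec-3(syb8382)*, against 7.01 and 7.33 CPM in *mec-3(u184)*. It overlaps *ins-13* on the same strand. In its list, of the propionate shunt and vitamin B12, *mtrr-1* was also called higher (log2 fold change 0.32). The other called members of that list, *acdh-1*, *nhr-114*, *nhr-68*, *ech-6* and *hphd-1*, fell, with log2 fold changes between -0.61 and -0.30. Among the 8 tested stress chaperones 5 fell, including *hsp-16.2* and *F44E5.4*, and the mitochondrial chaperonin *hsp-60* rose. The falls numbered 2 without *mec-3(u184)* library 2, and the rise was not called without *mec-3(u184)* library 1. Muscle sarcomere genes (1 of 18 rose and 3 fell, median -0.07) and ribosomal protein genes (3 of 81 rose and 2 fell, median -0.02) had few calls beside 46.0% of all genes, and without *mec-3(syb8382)* library 1 the falls numbered 18 among the ribosomal protein genes. The falls of the sarcomere genes numbered 5 without *mec-3(syb8382)* library 2, and their rise was not called without *mec-3(u184)* library 1, without *mec-3(u184)* library 2 or with the replicate block.

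The stage-linked lists varied far more across the series than between these strains. The oocyte and eggshell genes summed to 7344 and 7608 CPM in *mec-3(syb8382)*, against 4045 and 3910 CPM in *mec-3(u184)*, in counts without strand, and to between 34.2 and 9383 CPM in the libraries of the other 6 strains. The heterochronic and moulting genes summed to 869 and 663 CPM in *mec-3(syb8382)*, against 1612 and 1450 CPM in *mec-3(u184)*, and to between 547 and 6487 CPM elsewhere. Wild-type libraries had 127 and 720 CPM of the oocyte genes and 6487 and 4913 CPM of the moulting genes. Both *mec-3* strains lay away from these values, with *mec-3(syb8382)* farther. The other 6 strains all carry *uIs115* in place of *uIs134*, and the wild-type libraries do not keep the strand. Reporter, kind of library and culture can therefore not be told apart from the genotype, here or in later ranges over the other 6 strains. Whether the TRN, PVD and neuronal lists above moved with these sums was not tested, nor was the part of these sums in those results.

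**Figure D4:**
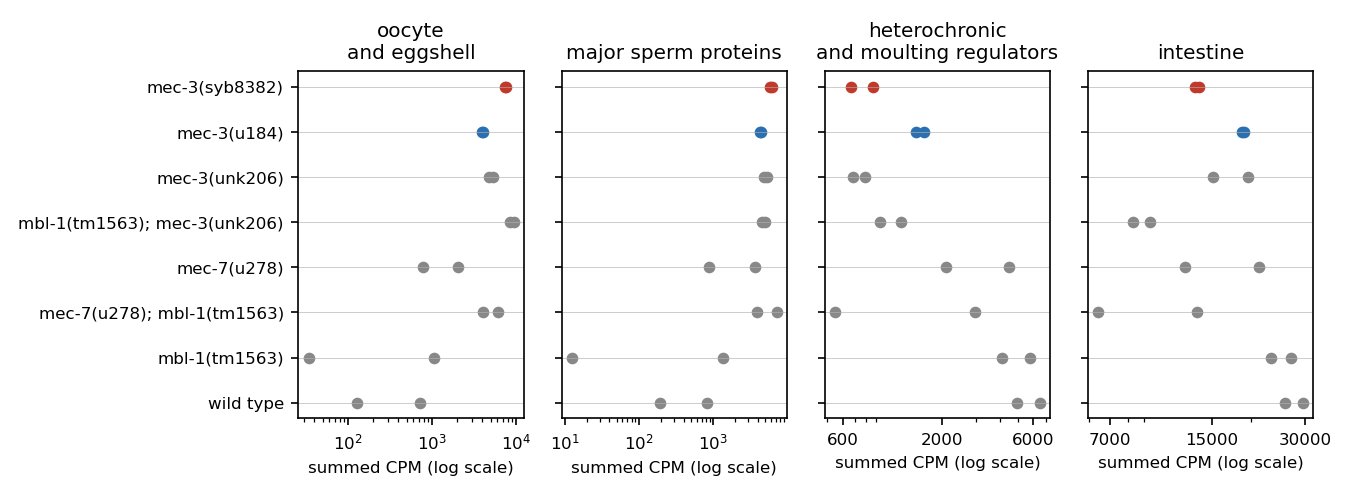
Summed CPM of 4 gene lists, counted without strand, in each library of the 8 strains on log axes, with 1 point per library. *mec-3(syb8382)* in red lies above *mec-3(u184)* in blue for oocyte and major sperm protein genes and below it for moulting and intestinal genes, and the 12 libraries of the other strains, in grey, spread more widely.

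The calls were also uneven between chromosomes. On chromosome X 98 of 2063 tested genes rose (4.75%) and 813 fell (39.4%), with a median of -0.33. On chromosome I 810 of 2428 rose (33.4%) and 333 fell (13.7%), with a median of 0.13. Chromosome V, which carries *uIs134* in both strains, had 531 rises and 779 falls among 2924 genes, a median of -0.19. Genes with germline expression are known to be scarce on X, and whether this bears on the shares above was not tested. Around *mec-3* itself, 101 genes with a start within 250 kb were tested, of which 22 rose and 29 fell, 50.5% against 46.0% of all genes. Of these, *R11A8.1* (18.8 and 19.1 CPM in *mec-3(syb8382)*, 7.73 and 7.15 CPM in *mec-3(u184)*), *C02F4.4* (4.44 and 2.84 CPM in *mec-3(syb8382)*, 12.2 and 12.4 CPM in *mec-3(u184)*) and the pan-neuronal *egl-21* were called. Further falls of at least 2-fold were *ech-8*, *F01G10.10*, *R09E10.13*, *F13B12.4*, *T07G12.3*, *C43F9.11*, *R09H10.2*, *R09H10.6*, *ptr-14* and *fmo-1*, between -1.87 and -1.05 on the log2 scale. The neighbouring zinc-finger genes that pair meiotic chromosomes, *zim-1*, *zim-2*, *zim-3* and *him-8*, rose together there, between 0.59 and 0.72 on the log2 scale.

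Single genes with far larger differences separated the strains. *F56A4.3*, on chromosome V from 2453414 to 2456147, had 0 counts in both *mec-3(syb8382)* libraries, against 1720 and 1765 counts (77.3 and 78.4 CPM) in *mec-3(u184)*, so it was at least 583-fold lower, taking 3 counts per library as the floor. It was also present in *mec-7(u278)* (103 and 116 CPM without strand) and in *mec-7(u278); mbl-1(tm1563)* (29.7 and 65.2 CPM), against 51.3 and 49.7 CPM in *mec-3(u184)* on that scale, and at or near 0 in the remaining strains. *C38D9.2* lies on chromosome V from 17567150 to 17571742. It had 0.83 and 1.44 CPM in *mec-3(syb8382)*, against 158 and 152 CPM in *mec-3(u184)* (log2 fold change -7.08, SE 0.15, adjusted p = 2.21e-05). The other 6 strains had between 2.91 and 6.42 CPM of it, in counts without strand, so *mec-3(u184)* lay above and *mec-3(syb8382)* below their range. The non-coding RNA *C38D9.13*, from 17573208 to 17574227 next to it, had 5 and 2 counts in *mec-3(syb8382)*, against 189 and 171 in *mec-3(u184)*, a ratio of 51.6 (exact 95% interval 24.8 to 129).

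In the other direction, the gene listed only as WBGene00016086, which the annotation used here does not place, had 144 and 130 counts (6.33 and 5.86 CPM) in *mec-3(syb8382)*, against 0 and 0 in *mec-3(u184)*, at least 45.5-fold higher. *C25A11.2*, on chromosome X from 9114066 to 9116892, had 12.2 and 10.8 CPM in *mec-3(syb8382)*, against 1.034 and 1.599 CPM in *mec-3(u184)* (log2 fold change 3.12, SE 0.22, adjusted p = 0.000594). Since the other 6 strains had between 7.12 and 14.7 CPM, *mec-3(u184)* was again the strain outside their range. The same held for *citk-1*, a citron kinase-like gene, with 14.9 and 17.2 CPM in *mec-3(syb8382)*, against 1.62 and 2.44 CPM in *mec-3(u184)* and 3.60 to 17.6 CPM elsewhere. *cin-4*, a topoisomerase II family gene, had 26.1 and 29.0 CPM in *mec-3(syb8382)*, against 2.65 and 3.11 CPM in *mec-3(u184)*, but ranged from 0.44 to 36.4 CPM in the other strains. The lectin gene *clec-74* was highest in *mec-3(syb8382)*, with 10.1 and 9.70 CPM in *mec-3(syb8382)*, against 2.29 and 2.93 CPM in *mec-3(u184)* and at most 2.05 CPM in other strains. Of the remaining rises *ztf-1* and *C17E7.4* had log2 fold changes of 1.97 (SE 0.09) and 2.18 (SE 0.18), and 5 annotated pseudogenes had log2 fold changes between 1.91 and 3.98.

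Several of the largest falls lay close together on chromosome V. *K06H6.2*, which lies at 585772 to 587336 of chromosome V, had 1.67 and 2.39 CPM in *mec-3(syb8382)*, against 23.96 and 22.79 CPM in *mec-3(u184)*. *K06H6.1*, from 588118 to 589657, had 0.79 and 1.49 CPM in *mec-3(syb8382)*, against 12.2 and 11.6 CPM in *mec-3(u184)*. *C14C6.6*, from 545832 to 548080, had 0.26 and 0.50 CPM in *mec-3(syb8382)*, against 5.39 and 5.51 CPM in *mec-3(u184)*. For all of these *mec-3(u184)* was above every library of the other 6 strains. *gmd-2*, a GDP-mannose dehydratase on chromosome I, had 0.97 and 1.58 CPM in *mec-3(syb8382)*, against 16.3 and 14.9 CPM in *mec-3(u184)* and at most 4.34 CPM elsewhere. Of the other falls chosen for size, *F30H5.3* rested on 1 library, with 0.57 and 0.81 CPM in *mec-3(syb8382)*, against 22.2 and 1.42 CPM in *mec-3(u184)*. *col-41*, *R12A1.3*, *idpc-4* and *R03C1.1* had log2 fold changes between -3.50 and -3.24 with *mec-3(u184)* libraries that differed from each other, such as 8.18 and 2.80 CPM of *R12A1.3*. *Y53F4B.10* had 2 and 1 counts in *mec-3(syb8382)*, against 77 and 52 in *mec-3(u184)*, a ratio of 43.2 (exact 95% interval 14.4 to 212).

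The 8 genes called in the fit of all 16 libraries were *C38D9.2*, *C38D9.13*, *C25A11.2*, *F56A4.3*, WBGene00016086, *citk-1*, *haf-6* and *dyf-3*, the last 2 named after their values were seen. *haf-6*, a half-molecule ABC transporter, had 8.92 and 10.01 CPM in *mec-3(syb8382)*, against 42.8 and 40.5 CPM in *mec-3(u184)* (log2 fold change -2.14, SE 0.10, adjusted p = 0.000336 between these strains). In counts without strand *mec-7(u278)* had 54.6 and 64.1 CPM of it and the other 5 strains between 7.42 and 13.2 CPM. *dyf-3*, a cilium gene, had 4.44 and 5.28 CPM in *mec-3(syb8382)*, against 0.81 and 0.84 CPM in *mec-3(u184)*. Among the 222 genes that were called and changed at least 4-fold (32 higher and 190 lower), *mec-3(u184)* alone lay outside the range of the other 6 strains for 44 (19.8%) and *mec-3(syb8382)* alone for 23 (10.4%). Over all genes tested the shares were 2.88% and 7.24%. These genes were picked by their difference between the 2 strains, so the shares were not tested.

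**Figure D5:**
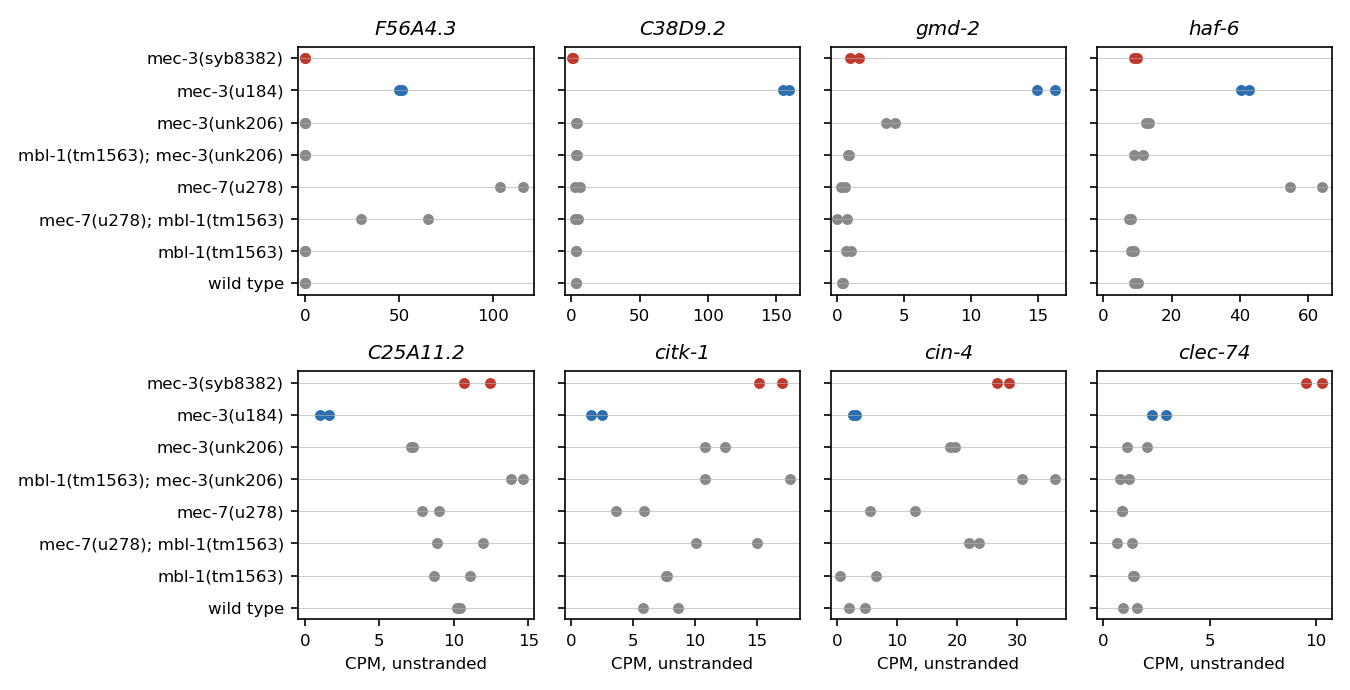
CPM counted without strand of 8 genes in each library of the 8 strains, with 1 point per library on linear axes. For *C38D9.2* and *gmd-2*, *mec-3(u184)* in blue is above all other libraries, for *C25A11.2* and *citk-1* below them, and *clec-74* is highest in *mec-3(syb8382)* in red, while *F56A4.3* and *haf-6* are also high in *mec-7(u278)*.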

How the data were processed

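RNA of whole L4 worms was sequenced as strand-specific paired ends, with 2 biological replicates per strain. The authors aligned reads to WBcel235 with STAR 2.7.10 and deposited raw counts per gene, uniquely mapped, in 3 columns per library. For the 4 libraries compared, the column for the second read strand, which held 97.9 to 98.2% of the counts on either strand, was used. The deposited counts were not normalised. Rows for unmapped, multimapping, ambiguous and featureless reads (4 per table) were left out, with multimapping reads at 3.59 to 4.24% and featureless reads at 0.903 to 1.24%. Counts were tested with edgeR 4.0.16 in R 4.3.3 (TMM factors, filterByExpr, quasi-likelihood test, Benjamini-Hochberg adjustment over all genes tested, threshold 0.05). Alternatives used DESeq2 1.42.0, other scalings, filters and samples, and each library left out. Strains were compared in counts without strand. Intervals cover counting error only. On data simulated for this comparison over 14726 genes, 82% of genes changed by 1 on the log2 scale and 37.1% of those changed by 0.5 were recovered, with 5 false calls. Each gene was drawn independently, with the spread fitted to these libraries. Shifts shared by many genes between cultures were not simulated, so the 5 false calls do not bear on them.

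The strains and gene lists were chosen with earlier results of these data known, and the *abu*, *idpc*, cell cycle and other added families after their values were seen. Named genes were the members of the TRN and PVD/FLP lists, the 12 largest rises and 12 largest falls of at least 5 CPM in the higher strain, genes with at most 3 counts per library in 1 strain and at least 50 in the other, called genes within 250 kb of *mec-3*, and called members of each list with low adjusted p. Other genes were named for their known role after their values were seen.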

Additional observations from a re-analysis of the deposited data

How the results depend on the processing

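Of 6857 calls, 3472 higher and 3385 lower in *mec-3(syb8382)*, the fit of all 16 libraries in counts without strand left 8, with 4 higher and 4 lower. Leaving out 1 library gave between 3906 and 7028 calls, between 1975 and 3591 higher and between 1931 and 3437 lower, the lowest without *mec-3(u184)* library 2. No gene called in both the analysis above and an alternative changed direction. DESeq2 called 5041 genes. The library numbers come from file names, and the labels do not say whether same-numbered libraries were paired. Deviations of same-numbered libraries correlated at -0.0913, which with 2 libraries per strain cannot decide this. With the library numbers as a replicate block 5633 genes were called, 2852 higher and 2781 lower. *egl-5*, *unc-86* and *dat-1* were then no longer called. Among the named genes 100 lost their call in the fit of all 16 libraries and 23 without *mec-3(u184)* library 2. The log2 fold change of *mnr-1*, not called here, was -0.294 without *mec-3(syb8382)* library 2 (called) and 0.301 without library 1. Genes of few counts, such as *mec-3*, *mec-4* and *mec-10*, limit what whole-animal RNA can show of TRNs.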
